A study of Mus musculus with 8 samples.

Results

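Purinergic signaling by extracellular nucleotides and adenosine was examined through 9 genes, namely the P2X receptor genes *P2rx4*, *P2rx5* and *P2rx7*, the P2Y receptor genes *P2ry2*, *P2ry6* and *P2ry12*, and the ectonucleotidase genes *Entpd1*, *Entpd2* and *Nt5e*. The genes were chosen by name, with earlier results of these data known. All 9 were found by symbol among the 55401 genes of the deposited table. TA (tibialis anterior) muscles were taken whole from male mice 6 mo old, 4 of them WT on the C57/Bl6 strain and 4 of them mdx5cv on the same background, a mouse model of DMD (Duchenne muscular dystrophy) with a mutation in the dystrophin gene *Dmd*. No treatment was given in the labels, and the comparison asks how the dystrophic muscle differs from WT muscle at this age. RNA was sequenced in bulk as stranded, ribosomal RNA-depleted libraries, with 1 library per muscle, and values are normalized counts, which are the reads of a gene divided by a size factor for that muscle.

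ATP is held at high concentration inside cells and is set free when muscle fibers are damaged or contract, and outside the cell it acts as a signal to fibers, immune cells, vessels and nerve endings. P2X receptors are cation channels opened by ATP, whereas P2Y receptors are coupled to G proteins and respond to ATP, ADP, UTP or UDP depending on the receptor. Ectonucleotidases on the cell surface end these signals stepwise. The products of *Entpd1* (CD39) and *Entpd2* remove phosphates from nucleoside triphosphates and diphosphates, and the product of *Nt5e* (CD73) turns the resulting AMP into adenosine, which acts on its own receptors. In dystrophic muscle, P2X7 on immune and muscle cells is known as a receptor for ATP leaking from damaged fibers.

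In mdx5cv TA muscle, the transcripts of 4 receptors rose by a log2 fold change of 1.78 to 3.02, namely those of *P2ry6*, *P2rx7*, *P2rx4* and *P2ry12*. *Entpd2* rose by less, with a log2 fold change of 0.60, and *Nt5e* was the one member that was lower, with a log2 fold change of -0.95. *P2rx5*, *P2ry2* and *Entpd1* did not pass the test. The comparison used limma, fitted to log2(normalized count + 1) of the 13677 genes that averaged 10 or more normalized counts, and a gene was called at a Benjamini-Hochberg adjusted p under 0.05. All 9 members passed this filter, but *P2ry6* and *P2ry12* passed it through the mdx5cv muscles alone, since their WT means were 9.55 and 4.13, so the counts below are descriptions.

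Of the 9 members, 5 were called higher and 1 lower, against 20.9% and 20.1% of all genes tested. With a log2 fold change of 1 or more in size as a second condition, 4 members were higher and 0 were lower in limma, edgeR and DESeq2, against 10.3% and 3.27% of all genes tested in limma, and 0 members had a log2 fold change of -1 or below at an unadjusted p under 0.05. With a pseudocount of 10, 3 members were higher, since the log2 fold change of *P2ry12* was 0.88. The values of the groups did not overlap for 6 members, 5 of them above and 1 below WT, an arrangement seen in 20.3% and 19.8% of all genes tested. Leaving aside *P2ry6* and *P2ry12*, 3 of 7 members were called higher and 1 lower. The median log2 fold change was 0.60 over the members and 0.00 over all genes tested. When samples were scaled to equal totals in place of the size factors, the median over all genes tested was 0.36, and 91.5% rather than 76.0% of the genes past both conditions were higher, so the scaling bears most on the smaller differences and on the falls.

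The recovered reads numbered 13862559 to 14921057 per WT muscle and 13175524 to 14502624 per mdx5cv muscle, so depth was similar, while size factors were 0.873 to 0.944 in WT and 1.06 to 1.25 in mdx5cv. Mitochondrial ribosomal RNA made up 25.9% to 33.2% of the reads in WT and 23.0% to 28.8% in mdx5cv. These reads are part of the totals used in the scaling to equal totals. *Dmd*, the mutated gene, was 6954 ± 857 in WT and 3964 ± 388 in the mdx5cv group (SD, n = 4), for a log2 fold change of -0.81 (adjusted p = 0.000177, limma). The muscles hold many cell types, and their markers moved with genotype. All 10 macrophage markers were called higher, their summed normalized count was 560.4 to 844 in WT and 4258 to 10256 in mdx5cv, and none was at 0 in all WT muscles. Of these 10, *Itgam*, *Cx3cr1* and *Fcgr1* passed the filter through the mdx5cv muscles alone, and the other 7 were also called higher. All 6 endothelial markers were called lower, with sums of 2562 to 3117 in WT and 1579 to 2015 in mdx5cv, although 2 of the 6 were called under equal totals. In whole muscle, more or fewer cells of a type and more or less RNA per cell cannot be told apart. One mdx5cv muscle, replicate 4, had the highest mdx5cv value for all 10 macrophage markers and for 6 of the 9 members. It was also the highest for all 6 regenerating fiber markers and 5 of 6 satellite cell markers, and for 0 of 6 mature fiber markers. When it was left out, 1117 genes in all, rather than 1414, were higher past both conditions. Without it the log2 fold changes were 1.86 for *P2rx4*, 1.87 for *P2rx7* and 2.85 for *P2ry6*, which stayed called.

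**Figure D1:**
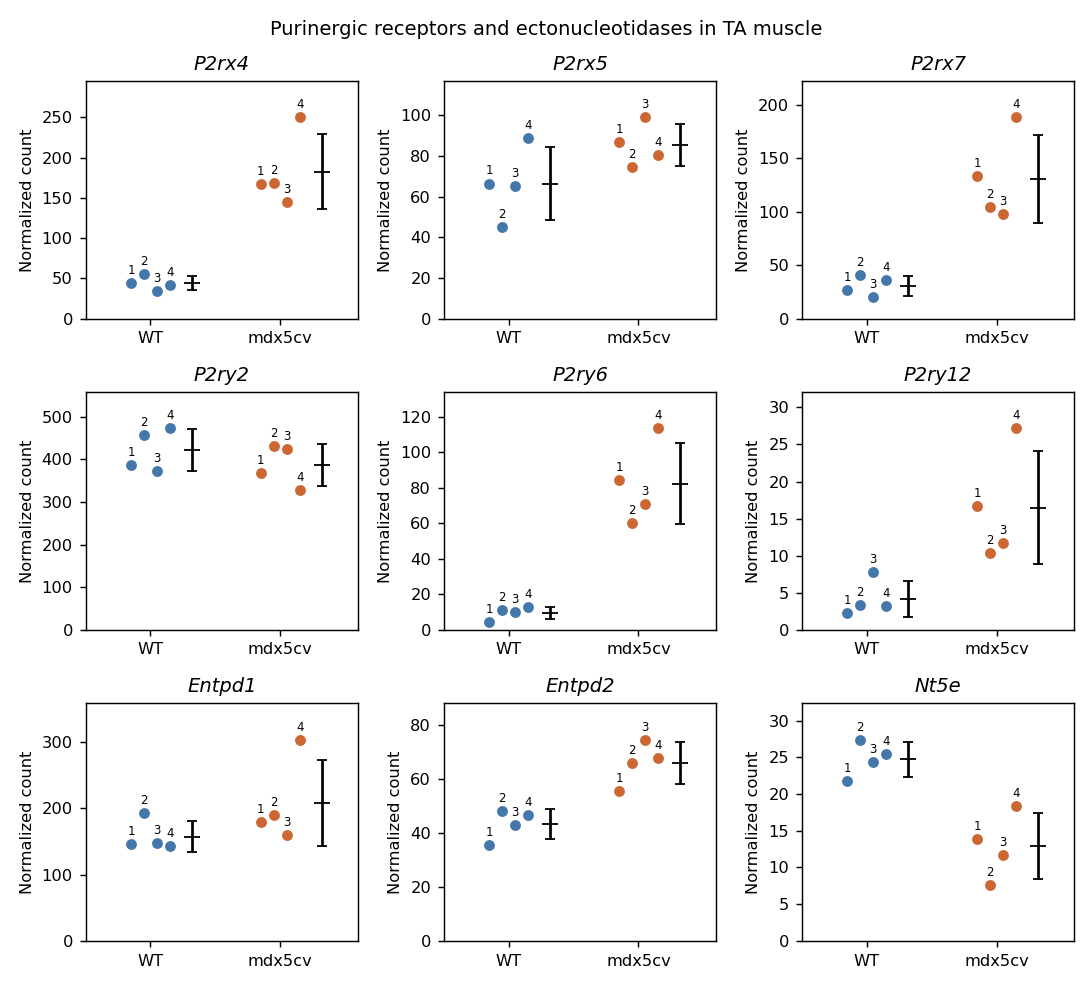
Normalized counts of the 9 members in each TA muscle, with WT in blue and mdx5cv in orange, the replicate number beside each point, and the mean ± SD (n = 4) beside each group. *P2rx4*, *P2rx7*, *P2ry6*, *P2ry12* and *Entpd2* lie higher in every mdx5cv muscle than in the highest WT muscle, *Nt5e* lies lower, and the groups overlap for *P2rx5*, *P2ry2* and *Entpd1*.

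*P2rx4* encodes P2X4, an ATP-gated channel found largely in lysosomes and at the surface of macrophages, microglia and other cells. It lies on chromosome 5 from 122707544 to 122729738 (+ strand, GRCm38, GENCODE M21). Its normalized count was 44.7, 55.9, 34.3 and 41.3 in the WT muscles and 168, 168, 145 and 250.1 in the mdx5cv muscles, in order of replicate. The lowest mdx5cv muscle stood far above the highest WT muscle, and mdx5cv replicate 4 stood above the rest. The mean was 44.1 ± 9.03 in WT and 183 ± 46.2 in the mdx5cv group (SD, n = 4), and the log2 fold change was 2.02 (standard error, SE, 0.19, adjusted p = 7.19e-06). Without any 1 of the muscles, it was 1.86 to 2.14.

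*P2rx7* encodes P2X7, the channel that needs high ATP and whose opening is known to activate the NLRP3 inflammasome in macrophages. The gene lies just before *P2rx4* on the same strand, from 122643911 to 122691432 of chromosome 5, with 16111 bases between them. The WT muscles held 26.4, 40.6, 19.9 and 36.0 normalized counts, and the mdx5cv muscles held 133, 105, 98.2 and 189. These groups did not overlap either, and mdx5cv replicate 4 was again the highest. The mean was 30.7 ± 9.33 in WT and 131 ± 41.2 in the mdx5cv group (SD, n = 4), and the log2 fold change was 2.06 (SE 0.25, adjusted p = 4.15e-05).

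The neighbors *P2rx7* and *P2rx4* differed from WT by a similar amount. The log2 ratio of *P2rx7* to *P2rx4* was -0.54 ± 0.27 in WT and -0.49 ± 0.16 in the mdx5cv group (SD, n = 4), a difference of 0.04 (p = 0.829, two-sided exact permutation test). With 4 muscles per group this test cannot go below 0.0286, and 5 such ratios were compared. The *P2rx4* to *P2rx5* log2 ratio was -0.56 ± 0.62 in WT and 1.07 ± 0.45 in the mdx5cv group (SD, n = 4), a difference of 1.63 (exact permutation p = 0.0286, adjusted over the 5 ratios 0.0357). The groups of *P2rx4* alone did not overlap while those of *P2rx5* did, so this ratio is a description.

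The promoters of the neighbors *P2rx7* and *P2rx4*, whose transcripts rose together, are shown with that of *P2ry12*, so that the sequence before each start can be compared. RefSeq promoters (GRCm38.p6) were found for 7 of the 9 members, not for *P2rx5* or *P2ry6*, and where *P2rx7* had 2 entries the first was taken. Given 5′ to 3′ on the strand of each gene, the bases before the start are those of *P2rx7* at chr5:122643677-122643910 (+), *P2rx4* at chr5:122707294-122707543 (+) and *P2ry12* at chr3:59262986-59263235 (-), with matches to the motifs searched in capitals.
P2rx7: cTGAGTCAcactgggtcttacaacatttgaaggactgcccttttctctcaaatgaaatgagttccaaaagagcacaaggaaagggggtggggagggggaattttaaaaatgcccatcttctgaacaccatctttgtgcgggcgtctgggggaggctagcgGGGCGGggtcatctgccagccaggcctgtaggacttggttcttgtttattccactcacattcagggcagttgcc
P2rx4: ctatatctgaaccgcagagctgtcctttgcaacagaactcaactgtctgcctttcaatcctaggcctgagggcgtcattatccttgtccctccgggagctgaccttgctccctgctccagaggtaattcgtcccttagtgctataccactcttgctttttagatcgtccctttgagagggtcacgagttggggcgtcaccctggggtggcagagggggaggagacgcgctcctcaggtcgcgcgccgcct
P2ry12: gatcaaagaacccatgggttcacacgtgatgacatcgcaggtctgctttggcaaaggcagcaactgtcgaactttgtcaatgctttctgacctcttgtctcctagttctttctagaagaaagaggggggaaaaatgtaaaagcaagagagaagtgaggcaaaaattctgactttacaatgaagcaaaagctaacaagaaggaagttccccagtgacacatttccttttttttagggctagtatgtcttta
The *P2rx7* window was ended before the GENCODE start of the gene and is 234 bases long, and the others are 250 bases long.

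Motifs were searched on both strands as GAGGAA (the core of sites for PU.1, a factor of macrophages), TGANTCA (AP-1), GGGCGG (GC box) and CAGCTG (E-box of myogenic factors). The *P2rx7* window held TGAGTCA, which starts 233 bases from its end, and GGGCGG, which starts 74 bases from it, and these matches did not overlap each other. None of these letters were found in the *P2rx4* and *P2ry12* windows. In windows of 234 bases from 32851 RefSeq promoters, TGANTCA was present in 6.45% and GGGCGG in 30.4%, and GAGGAA and CAGCTG in 21.7% and 12.1%. In windows of 250 bases the shares were 6.75%, 32.7%, 23.3% and 13%. A match describes the sequence and does not show binding.

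*P2rx5* encodes P2X5, a channel found in muscle and other tissues, and lies on chromosome 11 from 73160421 to 73172685 (+ strand). Its normalized count was 66.5, 45.0, 65.2 and 89.0 in WT and 87.1, 74.5, 99.1 and 80.7 in mdx5cv. The groups overlapped, since WT replicate 4 lay above 3 of the mdx5cv muscles. The means were 66.4 ± 18.0 and 85.3 ± 10.5 (SD, n = 4), and the log2 fold change was 0.39, with a 95% interval from -0.03 to 0.81 (adjusted p = 0.131). Without WT replicate 4 the log2 fold change was 0.54 (adjusted p = 0.0368), and under equal totals it was 0.74 (adjusted p = 0.0157).

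Among the P2Y receptors, *P2ry6* rose most. It encodes the UDP receptor P2Y6, known from macrophages and microglia, where it is tied to phagocytosis and chemokine release, and lies on chromosome 7 from 100937630 to 100974649 (- strand). The WT muscles held 4.58, 11.0, 9.95 and 12.7 normalized counts and the mdx5cv muscles 84.3, 60.4, 71.1 and 113. The groups were far apart, with 4 to 12 reads in each WT muscle and 64 to 142 in each mdx5cv muscle. The means were 9.55 ± 3.5 and 82.3 ± 23.0 (SD, n = 4), an 8.62-fold ratio of means and a log2 fold change of 3.02 (SE 0.30, adjusted p = 9.27e-06).

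*P2ry2*, next to *P2ry6* on the same strand with 21918 bases between them, encodes P2Y2, the receptor for ATP and UTP found in muscle, endothelium and epithelium. It lies from 100996568 to 101012866. In order of replicate, its normalized count was 387, 456, 372 and 472 in WT and 369, 431, 423 and 327 in mdx5cv. The groups overlapped broadly. The means were 422 ± 49.9 and 387 ± 49.0 (SD, n = 4), and the log2 fold change was -0.12, with a 95% interval from -0.39 to 0.14 (adjusted p = 0.452). Its sign turned under equal totals, to 0.23 (adjusted p = 0.154), a value below the shift of 0.36 in the median of all genes.

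The *P2ry6* to *P2ry2* log2 ratio was -5.39 ± 0.49 in WT and -2.25 ± 0.57 in the mdx5cv group (SD, n = 4), a difference of 3.14 (exact permutation p = 0.0286, adjusted over the 5 ratios 0.0357). That p is the smallest the test allows. *P2ry6* passed the filter through the mdx5cv muscles alone and its groups did not overlap, while those of *P2ry2* did, so this ratio is a description. A ratio within each muscle does not depend on the scaling, apart from the pseudocount.

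*P2ry12* encodes the ADP receptor P2Y12, known from platelets and microglia. It lies on chromosome 3 from 59216272 to 59262871 (- strand), within *Med12l* on the opposite strand, and the genes share 9 exon bases. Its normalized count was 2.29, 3.29, 7.74 and 3.18 in WT and 16.7, 10.4, 11.7 and 27.2 in mdx5cv. The groups did not overlap, but the values rest on 2 to 7 reads per WT muscle and 11 to 34 per mdx5cv muscle. The means were 4.13 ± 2.45 and 16.5 ± 7.62 (SD, n = 4), and the log2 fold change was 1.78 (SE 0.44, adjusted p = 0.00567). With no filter on low values the adjusted p was 0.0525, and without mdx5cv replicate 1 or 4 the gene fell under the filter and was not tested. *Med12l*, with 21.5 ± 4.12 in WT and 13.4 ± 2.10 in the mdx5cv group (SD, n = 4), had a log2 fold change of the opposite sign, -0.64 (adjusted p = 0.0712). Among platelet markers, *Pf4*, which is also a macrophage gene, rose by a log2 fold change of 1.92 (adjusted p = 0.000737). The 2 others in the table, *Ppbp* and *Gp9*, were under the filter, so a change in platelet content was not tested.

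Per kb of exon, the receptors differed widely in level. Among the 6 receptors, *P2ry2* stood highest in WT muscle, at 107 ± 12.7 normalized counts per kb, followed by *P2rx5* at 27.7 ± 7.51, *P2rx4* at 6.27 ± 1.29, *P2rx7* at 5.14 ± 1.56, *P2ry6* at 3.31 ± 1.21 and *P2ry12* at 1.62 ± 0.963 (SD, n = 4). *P2ry2* and *P2rx5* did not overlap with the genes next to them in this order, whereas *P2rx4* and *P2rx7*, *P2rx7* and *P2ry6*, and *P2ry6* and *P2ry12* overlapped in their ranges. In mdx5cv muscle *P2ry2* was still the highest at 98.7 ± 12.5 per kb, but *P2rx5* at 35.6 ± 4.38, *P2ry6* at 28.5 ± 7.95, *P2rx4* at 26.0 ± 6.58 and *P2rx7* at 22.0 ± 6.90 came together, each overlapping the next. *P2ry12* stayed at the bottom at 6.47 ± 2.99 per kb (SD, n = 4). The lengths are those of all GENCODE M21 exons of a gene, so these levels carry the error of that choice.

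**Figure D2:**
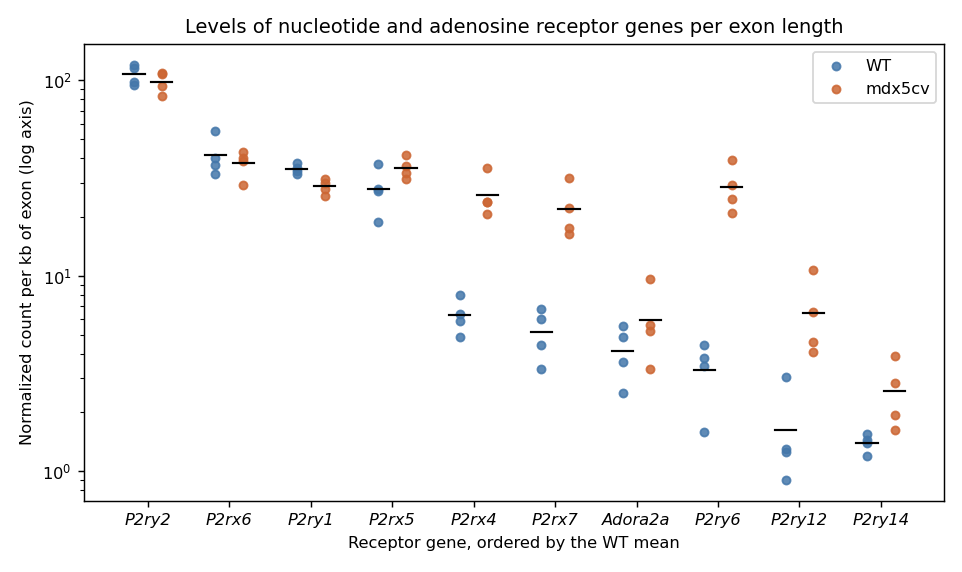
Normalized counts per kb of exon (log axis) of the nucleotide and adenosine receptor genes past the filter, in 4 WT (blue) and 4 mdx5cv (orange) TA muscles, with black bars for the group means and genes ordered by the WT mean. *P2ry2*, *P2rx6*, *P2ry1* and *P2rx5* hold the highest 4 places in WT, and *P2rx4*, *P2rx7* and *P2ry6* reach means of 22.0 to 28.5 per kb in mdx5cv from 3.31 to 6.27 in WT.

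Of the ectonucleotidases, *Entpd1* encodes CD39, which turns ATP and ADP into AMP on endothelial cells and leukocytes, and lies on chromosome 19 from 40612366 to 40741602 (+ strand). Its normalized count was 147, 193, 147 and 143 in WT and 179.7, 191, 159 and 304 in mdx5cv. WT replicate 2 lay above 3 of the mdx5cv muscles, and mdx5cv replicate 4 was well above all others. The means were 157 ± 23.8 and 208 ± 64.9 (SD, n = 4), and the log2 fold change was 0.37, with a 95% interval from -0.03 to 0.77 (adjusted p = 0.130). Without mdx5cv replicate 4 it was 0.17 (adjusted p = 0.380), and under equal totals it was 0.72 (adjusted p = 0.0154).

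*Entpd2* encodes an ectonucleotidase that acts mainly on triphosphates and so yields ADP, and lies on chromosome 2 from 25395874 to 25401321 (+ strand). For *Entpd2* the normalized count was 35.5, 48.3, 43.1 and 46.6 in WT and 55.6, 66.0, 74.7 and 67.9 in mdx5cv. The groups did not overlap, with 43.4 ± 5.66 in WT and 66.1 ± 7.93 in the mdx5cv group (SD, n = 4). The log2 fold change was 0.60 (SE 0.17, adjusted p = 0.0135). *Entpd2* shares 612 exon bases, 28.8% of its own, with *Npdc1* on the same strand, so reads in this stretch cannot be assigned to one of the genes and the value is uncertain. *Npdc1* rose as well, from 52.2 ± 17.4 to 122 ± 10.5 (SD, n = 4), with an adjusted p of 0.000345.

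*Nt5e* encodes CD73, which forms adenosine from AMP and is known from endothelium, stromal cells and lymphocytes, and lies on chromosome 9 from 88327197 to 88372092 (+ strand). Its normalized count was 21.8, 27.4, 24.3 and 25.4 in WT and 13.9, 7.55, 11.7 and 18.4 in mdx5cv. All mdx5cv muscles were below all WT muscles, on 8 to 23 reads per mdx5cv muscle. The means were 24.7 ± 2.35 and 12.9 ± 4.51 (SD, n = 4), and *Nt5e* fell by 0.95 on the log2 scale (SE 0.29, adjusted p = 0.0184). The call was lost without mdx5cv replicate 2 (log2 fold change -0.73, adjusted p = 0.0502), with no filter on low values (adjusted p = 0.0799) and under equal totals (log2 fold change -0.61, adjusted p = 0.145).

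The balance between the enzymes, taken within each muscle, differed between the groups. The *Entpd1* to *Nt5e* log2 ratio was 2.62 ± 0.15 in WT and 3.93 ± 0.41 in the mdx5cv group (SD, n = 4), a difference of 1.31. The *Entpd2* to *Nt5e* log2 ratio was 0.78 ± 0.07 in WT and 2.33 ± 0.54 in the mdx5cv group (SD, n = 4), a difference of 1.54. In both ratios all mdx5cv muscles lay above all WT muscles. That gave the smallest p the exact permutation test allows (0.0286, adjusted over the 5 ratios 0.0357). Because all mdx5cv muscles were above WT for *Entpd2* and below WT for *Nt5e*, the result for their ratio was fixed in advance. The groups of *Entpd1* overlapped while those of *Nt5e* did not, so both ratios are descriptions. Per kb of exon, *Entpd1* stood at 28.2 ± 4.27 in WT and 37.3 ± 11.6 in mdx5cv, *Entpd2* at 20.4 ± 2.66 and 31.0 ± 3.73, and *Nt5e* at 2.88 ± 0.274 and 1.5 ± 0.525 (SD, n = 4).

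Within groups, after the group mean was taken off each muscle, pairs of members varied in either direction. Of 36 pairs, Pearson's r of these log2 deviations over the 8 muscles was positive in 25 and negative in 11, with a median of 0.15. The value was 0.88 between *P2rx4* and *P2rx7* and 0.92 between *P2rx4* and *Entpd1*, and it was -0.73 between *P2ry2* and *P2ry12*. Among 87 tested genes of the marker and pathway lists, the one most like a member in these deviations was the macrophage gene *Mrc1* for *P2rx7* (r = 0.90), *Csf1r* for *P2ry6* (0.82) and *Cd68* for *P2ry12* (0.94), all from the macrophage list. For *P2rx4* it was *Ahcy* (0.94) and for *P2rx5* the nucleoside transporter gene *Slc29a2* (0.85). For *Entpd1* it was the platelet and macrophage gene *Pf4* (0.96), for *Entpd2* it was *Pi16* (0.81) and for *Nt5e* the smooth muscle gene *Acta2* (0.91). Before the group means were taken off, the most alike genes were *Pycard* for *P2rx4*, *Slc29a2* for *P2rx5*, *Adgre1* for *P2rx7*, *Hba-a1* for *P2ry2*, *Lyz2* for *P2ry6*, *Cd68* for *P2ry12*, *Enpp1* for *Entpd1*, *Casp1* for *Entpd2* and *Emcn* for *Nt5e*. These correlations describe 8 muscles that share library and scaling, with replicate 4 of mdx5cv far out for many genes. The part of macrophage or endothelial content in the changes of the members was not tested.

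**Figure D3:**
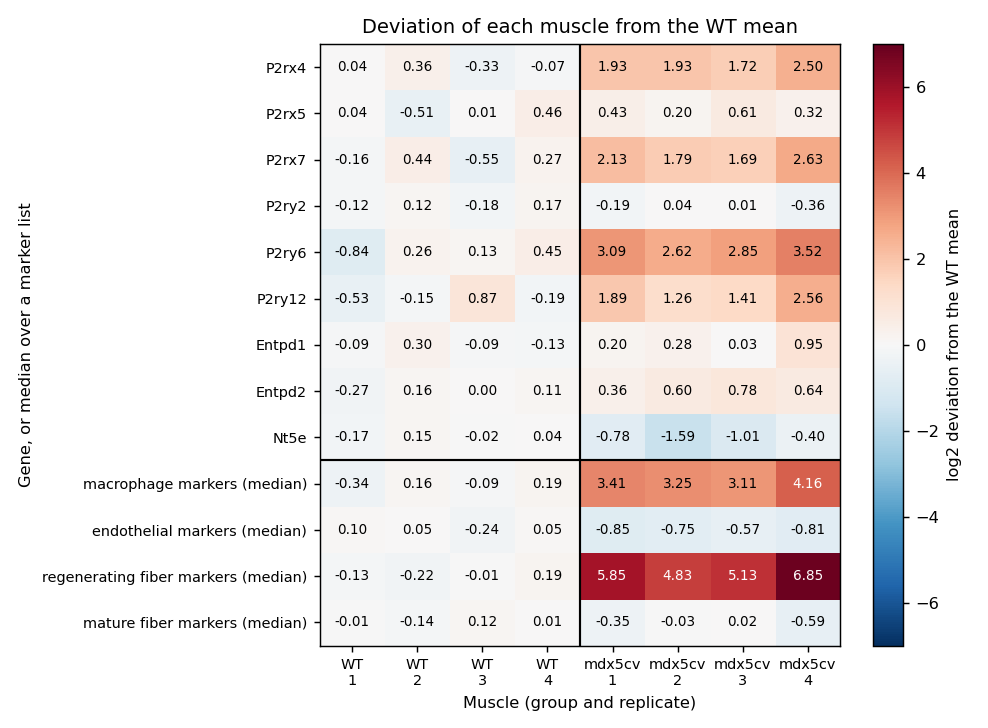
Log2 deviation of each TA muscle from the WT mean (color and printed value), for the 9 members above the horizontal line and for the median over 4 marker lists below it. In the mdx5cv muscles the macrophage median lies between 3.11 and 4.16 and the regenerating fiber median between 4.83 and 6.85. Both are highest in replicate 4, as are *P2rx4*, *P2rx7*, *P2ry6*, *P2ry12*, *Entpd1* and, among the mdx5cv muscles, *Nt5e* at -0.40. In the same muscles the endothelial median lies between -0.85 and -0.57, and the mature fiber median is lowest in replicate 4 at -0.59.

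The rest of the purinergic system was read from lists of 52 further genes in the table, 29 of which passed the filter. Of these 29, 11 were called higher and 5 lower, against 20.9% and 20.1% of all genes tested, 13 had no call, and the median log2 fold change was 0.27. With the second condition, 6 were higher and 1 was lower, against 10.3% and 3.27%, so the share of lower genes was near that of all genes. The lower one was *Txnip*. Among the higher ones, *Pycard* and *Casp1* passed the filter through the mdx5cv muscles alone, since their WT means were 5.51 and 7.37. The counts of higher genes are therefore descriptions.

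Among 9 other P2 receptor genes, 3 were tested. *P2ry14*, the UDP-glucose receptor, was 15.4 ± 1.68 in WT and 28.4 ± 11.3 in the mdx5cv group (SD, n = 4) and rose by a log2 fold change of 0.77 (adjusted p = 0.0475), a call that was lost under centring on the median (adjusted p = 0.0690) and in 7 of 8 fits with 1 muscle left out (0.55 without mdx5cv replicate 4, adjusted p = 0.151), all but that without mdx5cv replicate 3. *P2ry1*, an ADP receptor, had no overlap of the groups, with 143 to 161 in WT and 110.2 to 135 in mdx5cv, but did not pass the test (log2 fold change -0.30, 95% interval from -0.56 to -0.04, adjusted p = 0.0654). It was called lower under centring on the median (-0.39, adjusted p = 0.0214), and its sign turned under equal totals, to 0.06. *P2rx6*, the subunit that is typical of skeletal muscle, had a log2 fold change of -0.12 (95% interval from -0.49 to 0.25, adjusted p = 0.611), which was 0.24 under equal totals. *P2rx1*, *P2rx2*, *P2rx3*, *P2ry10* and *P2ry13* were under the filter, with group means of at most 9.46, and *P2ry4* had no reads. *P2ry13*, an ADP receptor like *P2ry12*, averaged 3.0 ± 3.38 in WT and 9.46 ± 3.09 in the mdx5cv group (SD, n = 4), with overlap.

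Of the 4 adenosine receptors, *Adora2a* alone was tested, with 12.6 ± 4.11 in WT and 18.2 ± 8.15 in the mdx5cv group (SD, n = 4). Its log2 fold change was 0.46, with a 95% interval from -0.32 to 1.23 (adjusted p = 0.333). *Adora2b* was under the filter at 4.58 to 9.53 in WT and 10.4 to 15.2 in mdx5cv, without overlap. *Adora1* and *Adora3* had group means of at most 4.61.

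Of 11 other ectonucleotidase and phosphatase genes, 7 were tested, 2 were higher and 1 was lower, with a median of -0.22. *Entpd7*, an enzyme of internal membranes, rose from 18.6 ± 5.77 to 54.1 ± 27.9 (SD, n = 4), for a log2 fold change of 1.42 (adjusted p = 0.00311), and mdx5cv replicate 4 at 95.1 was far above the others at 36.0 to 48.1. Without it the log2 fold change was 1.11 for *Entpd7* (adjusted p = 0.00774). *Enpp1*, which forms pyrophosphate from ATP, rose by a log2 fold change of 0.74 (adjusted p = 0.0155), which was 0.51 without mdx5cv replicate 4 (adjusted p = 0.0354). *Enpp2*, known as autotaxin and the source of lysophosphatidic acid, fell by 0.75 on the log2 scale (adjusted p = 0.00285), which was -0.39 under equal totals (adjusted p = 0.0703). *Acpp*, a phosphatase of AMP, had no reads in any WT muscle and 2.70 to 9.59 in mdx5cv.

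Routes by which nucleotides leave the cell held 5 tested genes of 10, of which 2 were higher and none lower, with a median of 0.29. *Panx1*, the pannexin channel that releases ATP and works with P2X7, was 80.2, 54.8, 43.1 and 41.3 in WT and 128, 109, 103 and 109 in mdx5cv. The groups did not overlap, and the log2 fold change was 1.07 (SE 0.20, adjusted p = 0.001). *Calhm2*, of a family of large-pore channels, rose by a log2 fold change of 0.82 (adjusted p = 0.0123). The connexin gene *Gja1* had a log2 fold change of 0.29, with no call (adjusted p = 0.174), and 0.65 under equal totals (adjusted p = 0.0117).

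For uptake and turnover of adenosine, 7 of 9 genes were tested, 2 of them higher and 2 lower, with a median of -0.12. *Slc29a3*, a nucleoside transporter of lysosomes, was 29.8, 28.5, 39.8 and 39.2 in WT and 126, 118, 94.6 and 221 in mdx5cv. It rose by a log2 fold change of 1.94 (SE 0.24, adjusted p = 4.23e-05), or 1.69 without mdx5cv replicate 4, near that of *P2rx4*. *Slc29a1*, the nucleoside transporter of the cell surface, rose by a log2 fold change of 0.35 (adjusted p = 0.0311), a call lost under centring on the median (adjusted p = 0.0874) and without WT replicate 1 or 3 or mdx5cv replicate 1 or 4 (adjusted p from 0.0684 to 0.0792). *Adk*, which returns adenosine to AMP, fell from 864 ± 221 to 539 ± 74.7 (SD, n = 4), for a log2 fold change of -0.65 (adjusted p = 0.00750), and *Slc28a2*, a concentrative transporter, fell by 0.66 on the log2 scale (adjusted p = 0.000619). Neither fall was called under equal totals, with log2 fold changes of -0.30 for both.

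Genes acting with or after P2X7 numbered 9, of which 6 were tested, 4 higher and 2 lower, with a median of 0.71. *Pycard*, the ASC adaptor of the inflammasome, was 5.73, 6.58, 4.42 and 5.30 in WT and 36.1, 31.1, 36.9 and 83.9 in mdx5cv, a log2 fold change of 2.78 (2.46 without mdx5cv replicate 4, adjusted p = 3.41e-05 with all muscles). *Casp1*, the protease of the inflammasome, was 7.37 ± 5.05 in WT and 40.5 ± 7.46 in the mdx5cv group (SD, n = 4), for a log2 fold change of 2.50 (adjusted p = 0.000335). Both passed the filter through the mdx5cv muscles alone. *Gsdmd*, which forms the pores of pyroptosis, rose from 38.5 ± 9.55 to 84.7 ± 9.74 (SD, n = 4), for a log2 fold change of 1.14 (adjusted p = 0.000447).

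*Ano6*, a lipid scramblase engaged by P2X7, rose by a log2 fold change of 0.29 (adjusted p = 0.0494), a call lost under centring on the median (0.19, adjusted p = 0.179) and in 7 of 8 fits with 1 muscle left out, all but that without WT replicate 4 (adjusted p from 0.0510 to 0.137). *Txnip*, which encodes a binding partner of thioredoxin and NLRP3, fell by 1.05 on the log2 scale (adjusted p = 0.0119). Its groups overlapped, since mdx5cv replicate 2 at 5063 lay above the lowest WT muscle at 4856. The log2 fold change of *Txnip* was -0.75 without mdx5cv replicate 4 (adjusted p = 0.0260) and -0.69 under equal totals (adjusted p = 0.0366). *Nek7*, a kinase that binds NLRP3, fell by 0.55 (adjusted p = 0.000916), which was -0.19 under equal totals (adjusted p = 0.142). *Nlrp3* itself averaged 1.64 ± 1.42 in WT and 6.02 ± 4.13 in the mdx5cv group (SD, n = 4) and was not tested. The cytokine genes *Il1b* and *Il18* were also under the filter, the latter at 0 to 6.58 in WT and 9.43 to 11.7 in mdx5cv.

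**Figure D4:**
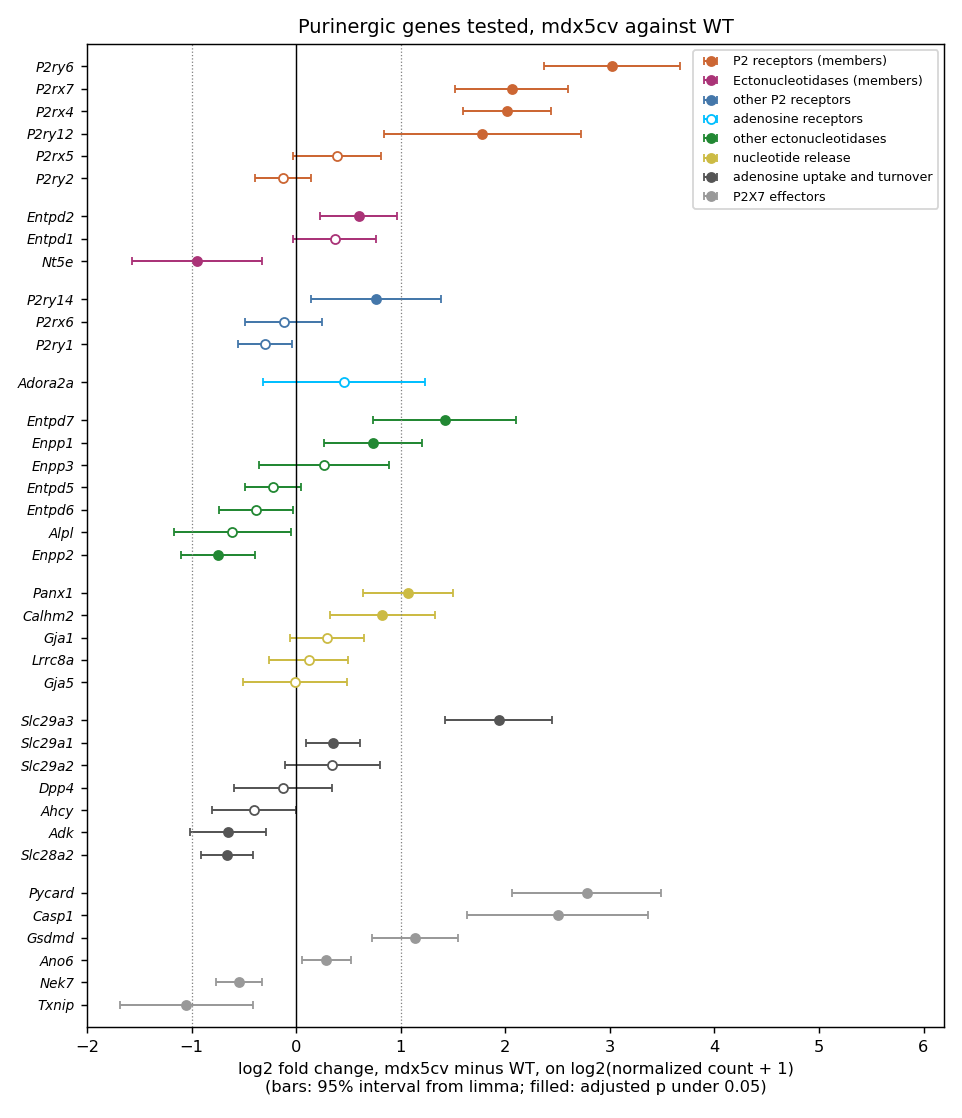
Log2 fold change of mdx5cv over WT with its 95% interval from limma for the 9 members and the 29 other purinergic genes tested, by list, with filled points for an adjusted p under 0.05 and dotted lines at log2 fold changes of -1 and 1. *P2ry6*, *P2rx7*, *P2rx4* and *P2ry12* lie beyond 1 with *Pycard*, *Casp1*, *Slc29a3*, *Entpd7*, *Gsdmd* and *Panx1*, and *Txnip* is the one called gene beyond -1.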

How the data were processed

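Bulk RNA-seq libraries of 8 TA muscles (4 mdx5cv, 4 WT) were analysed, with groups and replicate numbers taken from the sample labels. The labels number the muscles and do not state more on their origin, so p-values measure the spread between these samples. The signal the authors deposited is a normalized count for each of 55401 genes, in which the reads of each sample were scaled by its size factor, with no filter. The submitters' processing notes name FastQC, Trim Galore 0.6.4, STAR 2.6.0c, SAMtools 1.9, featureCounts, MultiQC 1.6, DESeq2 1.26.0, R 3.6.2 and the mm10 build. The strand setting and annotation of the counting are not given in the sources used here, so overlapping and antisense genes are uncertain. Whole reads were recovered for 100% of the values (tolerance 0.001), with 13175524 to 14921057 reads per muscle, and replicates were not copies (chi-square per degree of freedom 8.59 to 38.4).

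Groups were compared two-sided with limma 3.58.1 in R 4.3.3 (lmFit, eBayes with a variance trend, no covariate) on log2(normalized count + 1), a scale that understates the change of low genes. Genes averaging 10 or more normalized counts were kept, and Benjamini-Hochberg adjustment ran over all 13677 genes tested. On the recovered reads, edgeR 4.0.16 (quasi-likelihood test) called 1907 genes and DESeq2 1.42.0 called 1906 past an adjusted p of 0.05 with a log2 fold change of 1 or more in size, against 1861 in limma. Ratios of members were compared by exact permutation of the 8 muscles (70 arrangements) in scipy 1.17.1, with numpy 2.4.6, matplotlib 3.10.9 and pandas 2.3.3 on Python 3.11.15. The fits were tested on simulated data with the same dispersion for all genes and changed genes at a log2 fold change of 2 in size. Smaller changes and an outlying muscle were not covered. Positions, exon lengths and overlaps were matched by gene ID to GENCODE M21 (GRCm38), and promoters are from RefSeq. The other alternatives were a pseudocount of 0.1 or 10, other filters, no variance trend, a block for the replicate number, 3 other scalings (equal totals, TMM factors and centring on the median), a log2 fold change of 2 or more in size, and each muscle left out in turn.

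The members and lists were chosen with earlier results of these data known. The rule for named genes took all members, receptors of the lists past the filter, list genes past both conditions, up to 3 of the most abundant markers per list, the genes most like each member and *Dmd*, except items that are not reported here. Other list genes were named after their values were seen, because few were called or measured.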

Additional observations from a re-analysis of the deposited data

Results flagged for a closer look

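*Entpd1* in WT muscle was flagged because 1 muscle stood apart from the others of its group. WT replicate 2 had a log2 value of 7.6 (193 normalized counts), and the other 3 WT muscles lay between 7.17 and 7.21. The gap between replicate 2 and its nearest neighbor was 0.907 of the whole range of the group, above Dixon's 95% critical value for 4 samples. Of 18 sets of 4 muscles examined (9 genes in each group), this was the 1 flagged, and chance flags about 0.9 of 18.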

How the results depend on the processing

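Of 166 values of the members under the alternatives, 158 kept their direction and side of the threshold. *P2ry2* reversed to 0.23 under equal totals. The calls of *P2ry12* (log2 fold change 1.78, adjusted p = 0.0525) and *Nt5e* (-0.95, adjusted p = 0.0799) were lost with no filter. That setting both fits the variance trend and adjusts over all 55401 genes. Under equal totals the call of *Nt5e* was lost (-0.61), and *P2rx5* (0.74) and *Entpd1* (0.72) gained one. With each muscle left out, log2 fold changes ranged from -1.13 to -0.73 for *Nt5e*, 0.22 to 0.54 for *P2rx5*, 0.17 to 0.48 for *Entpd1*, 0.51 to 0.68 for *Entpd2* and 1.6 to 2.07 for *P2ry12*. *P2ry6*, *P2ry12* and *Nt5e* could not be tested at a minimum of 10 in every muscle, which left 2 members higher. *Nt5e* passed a log2 fold change of 1 in size with a pseudocount of 0.1 and with centring on the median, giving 1 lower member, and 0 to 1 with each muscle left out. Among the other purinergic genes, 2 were higher and 0 lower at an absolute log2 fold change of 2. *Txnip* was not past both conditions with no filter, under equal totals, in edgeR or in DESeq2 (0 lower), and the count was 0 to 1 with each muscle left out. Over all genes, 729 were higher and 275 lower at a minimum of 10 in every muscle, 2255 and 209 under equal totals, and 600 and 85 at an absolute log2 fold change of 2 or more. The replicate numbers were not taken to pair the muscles. Deviations of same-numbered muscles correlated at r = 0.03 to 0.15, and not every muscle correlated best with its own number. With 4 muscles per group, these values cannot settle whether the numbers pair the muscles. With the replicate block, 1428 genes were higher and 454 lower, and 4 and 0 members, with no member call changed. Depth limits *P2ry12*, *P2ry6* and *Nt5e* most, with under 30 reads in each WT muscle.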

Other observations

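Markers of other cell types were described for the same muscles. All 6 regenerating fiber markers were called higher (median log2 fold change 5.66), among them the embryonic and neonatal myosin genes *Myh3* (6.02) and *Myh8* (3.74), although *Mymk*, *Mymx* and *Chrng* passed the filter through the mdx5cv muscles alone, and the summed normalized count of all 6 was 118 to 143 in WT and 2175 to 8502 in mdx5cv. Of 6 mature fiber markers, 2 were lower and none higher, with a median of -0.15 that was 0.21 under equal totals. In the fibroblast list 4 of 7 were higher, with *Col1a1* at 3.13 and *Col3a1* at 3.09, while *Dcn* at -0.24 had no call. Of 5 tested satellite cell markers 3 were higher, with *Myod1* at 1.44. The pericyte and smooth muscle list was split, with 3 of 6 higher and 3 lower, among them *Rgs5* at -0.87. Of the lymphocyte list *Il7r* alone of 8 was tested, having passed the filter through the mdx5cv muscles alone, with a log2 fold change of 5.27, 1 of 3 erythrocyte and platelet genes was higher and 2 were lower, and 2 of 3 mast cell and granulocyte genes were higher.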
